A study of Homo sapiens with 12 samples.

Results

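Genes of the Wnt pathway were followed in A172 cells, an adherent line established from a human glioblastoma, after stable overexpression of hHSS1, a gene now listed as EMC10. The set holds 10 genes chosen by name, the ligands WNT5A and WNT5B, the receptor FZD7, the R-spondin receptors LGR4 and LGR5, the secreted modulators DKK1 and DKK3, the destruction complex scaffold AXIN2 and the nuclear factors TCF7L2 and LEF1. Each was found by its symbol in the platform annotation, and where a gene had several probe sets the 1 brightest on average over the 12 arrays stood for it. These are 10 of the 18417 genes measured with a single symbol. Probe sets were thus selected on their mean over all arrays, with no measured difference between groups in the rule, and DKK3 was the only one of the 10 with a choice (probe sets 7946661 and 7938481).

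The study asked what overexpression of hHSS1 changes in glioma cells. Transcripts were measured with the Affymetrix Human Gene 1.0 ST array, whose probes lie along the length of each gene, in 4 groups of 3 cultures harvested on day 4. Wild-type A172 cells were not transfected, mock cells carried the empty pcDNA3.1 vector, and clones 7 and 8 carried the vector expressing hHSS1 with a histidine tag at its C-terminus. The transfected lines were stable and kept under G-418 selection, so that mock differs from wild-type by vector and selection. Mock is 1 line and each clone is 1 clone. The p-values thus cover the variation among cultures of a line and none among lines made anew. Values are log2 expression levels as deposited, and the array medians lay between 8.60 and 8.67. A gene was called risen or fallen at a limma adjusted p under 0.05 together with a difference of at least 1.5-fold.

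Wnt ligands are secreted lipid-modified proteins that bind Frizzled receptors together with LRP5 or LRP6 on the cell surface. In the canonical branch this binding disables a complex built on AXIN proteins that marks beta-catenin for destruction, and beta-catenin then enters the nucleus and works with the TCF and LEF factors on target genes, among them AXIN2, LEF1 and LGR5. R-spondins, bound by LGR4, LGR5 and LGR6, keep Frizzled receptors on the surface and so strengthen the signal, while DKK1 blocks LRP5 and LRP6. LGR5 is best known as a marker of epithelial stem cells, and in glioblastoma it has been described in tumour-propagating cells.

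The labels were checked with hHSS1 (EMC10) itself. Its log2 level was 11.13, 10.43 and 10.69 on the wild-type arrays, 9.20, 9.33 and 9.51 on the mock arrays, 11.57, 11.72 and 12.30 on the clone 7 arrays and 12.13, 12.18 and 11.75 on the clone 8 arrays. Every clone array lay above every control array, and mock lay below wild-type. The clones exceeded mock by 2.59 ± 0.18 (log2, SE, limma adjusted p = 7.82e-06). They exceeded wild-type by less, 1.19 ± 0.18 (adjusted p = 0.0013). Mock itself differed from wild-type by -1.40 ± 0.20 (adjusted p = 0.00285) and was called lower. The difference of hHSS1 from mock thus also holds the low level of the mock line. Of 8 glial and glioma markers, VIM (13.60), CD44 (13.43), SOX9 (10.73) and NES (9.39) had mean levels above the array median of the 18417 genes (9.21), while GFAP (8.71), OLIG2 (8.35), FABP7 (6.83) and S100B (6.34) lay below it. The endothelial markers PECAM1, CDH5, VWF and KDR all lay below it, and of the measured leukocyte markers only CD68 (11.48) lay above. The epithelial markers KRT18 (13.67) and KRT8 (13.55) and the neuronal markers NEFL (12.12) and SYT1 (10.64) lay above it too. The other epithelial and neuronal markers lay below. The log2 levels of the 8 glial markers summed to 77.70 to 78.07 in wild-type, 77.69 to 77.97 in mock, 76.44 to 76.97 in clone 7 and 76.76 to 77.90 in clone 8. The 6 neuronal markers summed to 56.96 to 57.48 in wild-type, 56.04 to 56.28 in mock, 55.65 to 57.84 in clone 7 and 55.00 to 58.21 in clone 8, and the 5 epithelial markers to 50.54 to 50.78 in wild-type, 51.30 to 51.70 in mock, 51.22 to 52.08 in clone 7 and 51.34 to 52.01 in clone 8. So the glial sum was lower in clone 7 and the epithelial sum higher in every transfected line than in wild-type. The part of these shifts in the results was not tested.

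Among the clone arrays, 3 lay nearer to the other clone than to their own. Clone 7 replicate 3 lay farther from the other clone 7 arrays (mean root-mean-square difference over all genes 0.261) than from the clone 8 arrays (0.205), and its nearest array was clone 8 replicate 2 (0.115). Clone 8 replicate 3 lay farther from the other clone 8 arrays (0.302) than from the clone 7 arrays (0.207), and its nearest array was clone 7 replicate 1 (0.157). Clone 8 replicate 2 lay at 0.278 from its own clone and 0.214 from clone 7. Clone 8 replicate 1 was nearer on average to its own clone (0.269) than to clone 7 (0.287), but its nearest array was also clone 7 replicate 3 (0.21). All arrays were kept under their labels. The labels do not tell whether arrays were exchanged, this was not tested, and values for clone 7 and clone 8 apart hold only for the arrays so labelled. Results are given with all arrays and, as an alternative chosen after seeing the data, without the 2 clone arrays numbered 3. Leaving out the arrays that stood apart lowers the spread within the clones by its construction, so that a smaller p-value there is no added support. Values without clone 8 replicate 2 are given beside the results on LGR5, LGR4 and LEF1. With all arrays 0 genes were called between clone 8 and clone 7 (limma, lowest adjusted p = 0.62, with 1328 genes at an unadjusted p under 0.05), and without the 2 arrays 617 were, a count built in by the choice of arrays and no test of a difference between the clones. hHSS1 exceeded mock by 2.55 ± 0.14 in the clones without them.

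LGR5 rose in the clones. On its probe set (7957140, chromosome 12) the log2 level was 7.20, 7.29 and 6.93 in wild-type cells and 7.00, 6.93 and 6.81 in mock. It was 7.77, 7.68 and 8.62 in clone 7 and 8.33, 8.95 and 7.68 in clone 8. Each of the 6 clone arrays was above each of the 6 control arrays, a separation that 2.55% of all genes showed in this direction. The controls lay near the lower quartile of the probe sets (7.00 to 7.12 over the arrays), where signal and background cannot be separated without detection calls, so that the fold may be misjudged. An array of a whole culture also cannot separate a higher level per cell from more cells that express the gene.

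**Figure D1:**
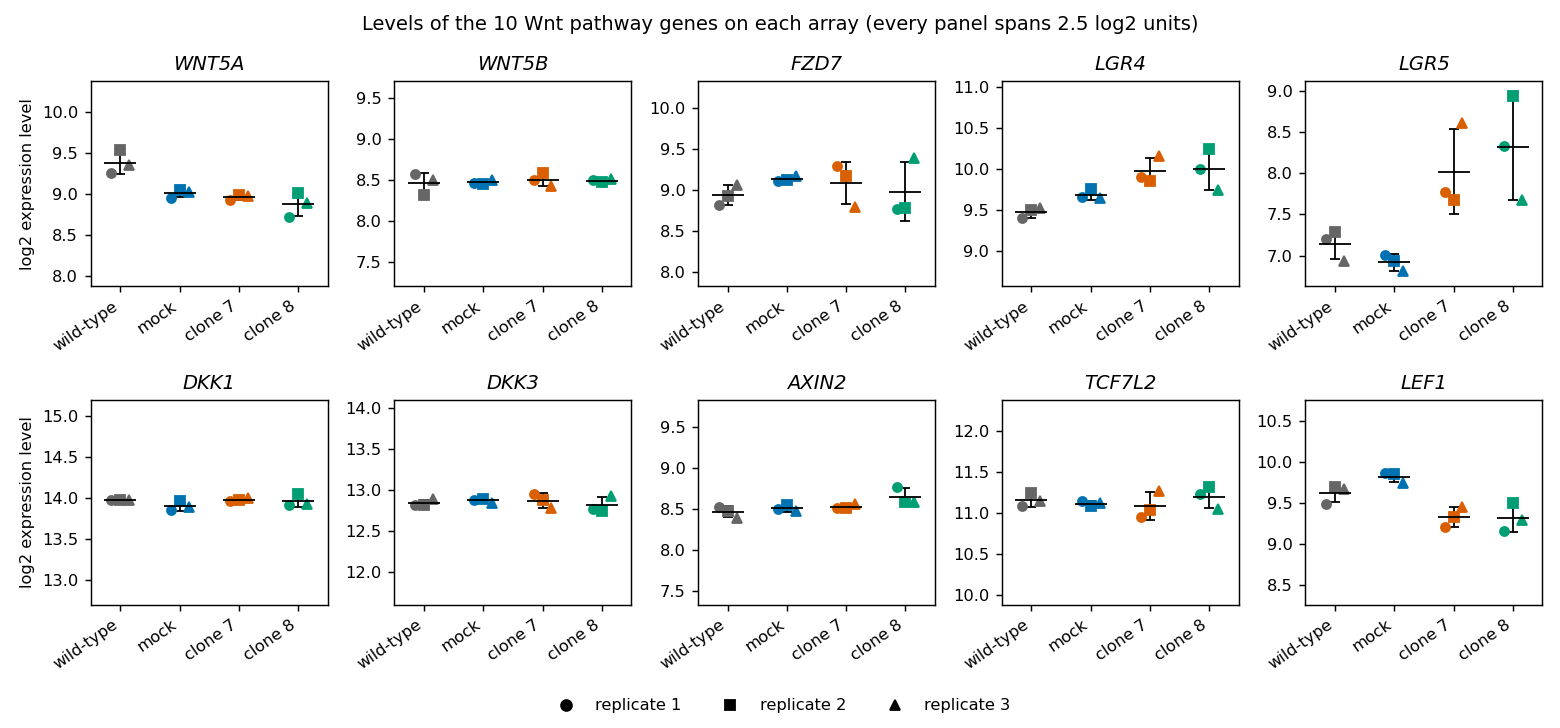
Log2 expression level (vertical axis) of each of the 10 Wnt pathway genes by group (horizontal axis), with 1 point per array, its shape giving the replicate, and a bar for the group mean and SD of 3 arrays. LGR5 runs from 6.81 to 7.29 in the controls and from 7.68 to 8.95 in the clones, while DKK1 stays between 13.85 and 14.05.

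The mean of both clones exceeded mock by 1.25 ± 0.25 (log2, SE, 95% interval 0.72 to 1.79), a 2.39-fold difference with a limma adjusted p of 0.0109. LGR5 was the only 1 of the 10 genes called in this comparison, in which 0.728% of all genes were called and 0.407% were called higher. The 10 genes were named with earlier results of these data in view, so that this count is a description. Clone 8 exceeded mock by 1.40 ± 0.28 (adjusted p = 0.0173, with 0.76% of all genes called), and clone 7 by 1.11 ± 0.28, which did not pass (adjusted p = 0.0581, with 0.7% called). The difference between the clones was itself 0.30 ± 0.28 (interval -0.32 to 0.92, adjusted p = 0.699). The missed threshold in clone 7 thus does not by itself show a smaller rise there. With a wide interval and clone labels in doubt, whether the clones differ was not resolved. Against wild-type the clones were higher by 1.03 ± 0.25 (adjusted p = 0.0208, with 1.58% of all genes called). Both comparisons use the same clone arrays. Mock and wild-type differed by -0.23 ± 0.28 (adjusted p = 0.88).

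The order of the group means was clone 8, clone 7, wild-type and mock. Neither clone 8 and clone 7, as labelled, nor wild-type and mock differed beyond their spread. The call against mock needed all 3 mock arrays. Without mock replicate 1, 2 or 3 the difference was 1.30, 1.26 or 1.20 for LGR5, with adjusted p-values of 0.0509, 0.0594 and 0.0642. The call of clone 8 against mock was lost without any 1 of the mock arrays (adjusted p = 0.062 to 0.0735) or without clone 8 replicate 1 (adjusted p = 0.0544), and that of the clones against wild-type without any 1 of the wild-type arrays (adjusted p = 0.0614 to 0.115). With only the compared groups in the fit, clone 8 against mock (adjusted p = 0.0525) and the clones against wild-type (adjusted p = 0.0577) also missed. Clone 7 against mock passed under 5 of 20 alternatives, which were array weights (0.87, adjusted p = 0.000185), only the compared groups (adjusted p = 0.0449), clone 8 replicate 2 or 3 left out (adjusted p = 0.0241 and 0.015) and both clone arrays numbered 3 left out. With both of these arrays left out, clones against mock gave 1.27 ± 0.13 (adjusted p = 0.000131), clone 7 against mock 0.81 ± 0.15 (adjusted p = 0.00476) and clone 8 against mock 1.72 ± 0.15 (adjusted p = 3.87e-05), and the clones against wild-type 1.04 ± 0.13 (adjusted p = 0.000266). Without clone 8 replicate 2, the array with the highest LGR5, the clones exceeded mock by 1.10 ± 0.21 (adjusted p = 0.0086) and wild-type by 0.87 ± 0.21 (adjusted p = 0.0181).

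Within each clone as labelled, LGR5 varied far more than in the controls, with an SD of 0.52 in clone 7 and 0.64 in clone 8 against 0.19 in wild-type and 0.10 in mock (n = 3 each). It was high on clone 7 replicate 3 (8.62) and clone 8 replicates 1 and 2 (8.33 and 8.95) and low on the other three clone arrays (7.68 to 7.77). hHSS1 was split over the same arrays, with 12.13 to 12.30 on those where LGR5 was high and 11.57 to 11.75 on those where it was low. LGR4 and TCF7L2 lay above the mean of their own clone on the same 3 arrays, and FZD7 lay below it. The same 3 arrays stood apart over all genes, since the first principal component of the clone arrays' deviations from their clone means held 66.2% of the variance and scored 11.4 to 21.9 on these arrays and -24.0 to -10.6 on the others. Its part in the values of these 4 genes was not tested.

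**Figure D2:**
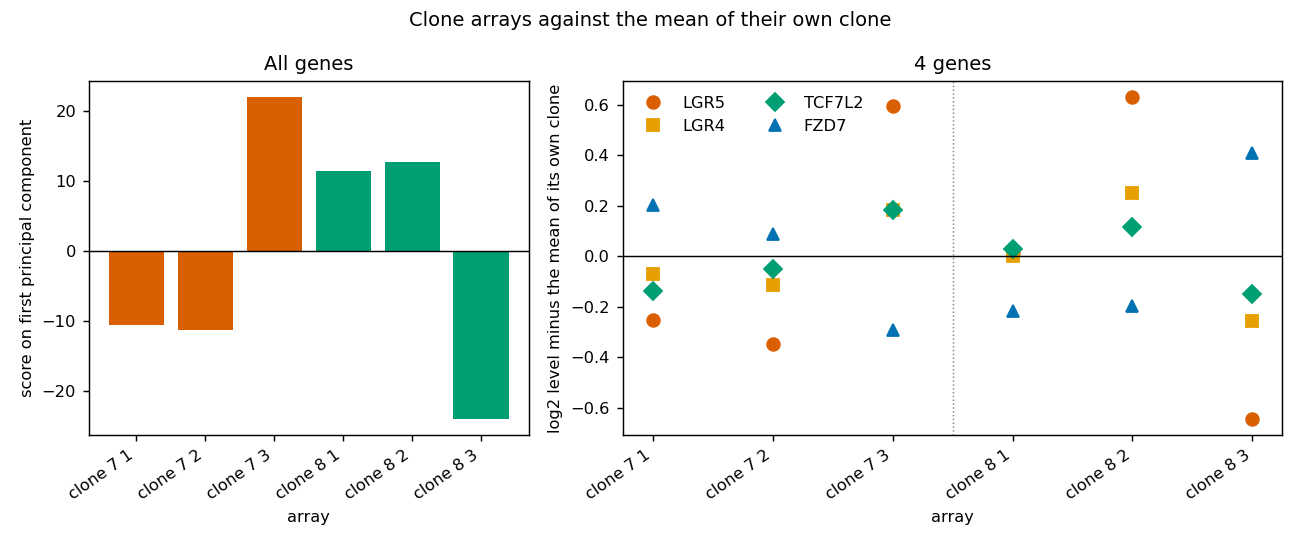
The left panel shows the score of each clone array (horizontal axis) on the first principal component of the deviations of all genes from the mean of their own clone (vertical axis, arbitrary units). The right panel shows the deviation of LGR5, LGR4, TCF7L2 and FZD7 from the mean of their own clone (log2, vertical axis) on the same arrays, with LGR5 from -0.64 on clone 8 replicate 3 to 0.63 on clone 8 replicate 2 and FZD7 running the other way.

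The 5 genes whose levels lay nearest to those of LGR5 over the 12 arrays, after each gene's own mean was subtracted, were ADAM12, a membrane metalloprotease (root-mean-square difference 0.217), NEO1, the netrin receptor neogenin (0.269), NIPAL2, a membrane protein of the magnesium transporter family (0.276), CLDN1, a tight junction claudin (0.283), and TAF4B, a subunit of the basal factor TFIID (0.284). ADAM12 stood at 8.70 to 8.75 in mock and 8.98 to 9.05 in wild-type, and at 9.39, 9.35 and 10.06 in clone 7 and 9.80, 10.23 and 9.24 in clone 8. Its clone arrays split as those of LGR5 did. CLDN1 split less, with 11.41, 11.32 and 11.61 in clone 7 and 11.46, 11.74 and 11.26 in clone 8 against 10.16 to 10.37 in the controls. Since the 5 genes were chosen for likeness to LGR5 on these same arrays, their split and their rise are built in. Their calls are thus no added support. The clones exceeded mock by 0.95 for ADAM12, 1.05 for NEO1, 1.15 for CLDN1 and 0.86 for TAF4B, each called. For NIPAL2 the difference was 0.83, which was not called. Without the clone arrays numbered 3 these differences were 0.96, 1.04, 1.16 and 0.85, again called, and NIPAL2 (0.81, adjusted p = 0.000624) was called too.

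**Figure D3:**
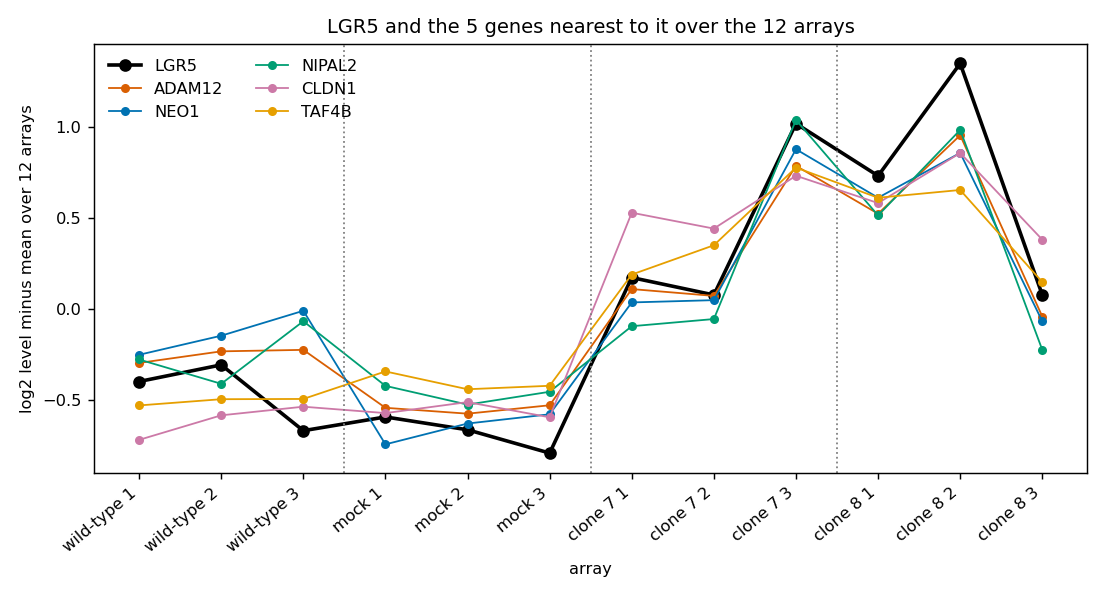
Log2 level minus the gene's mean over the 12 arrays (vertical axis) on each array (horizontal axis) for LGR5 (black) and the 5 genes nearest to it (colours), with dotted lines between the groups. All 6 genes are higher on clone 7 replicate 3 and clone 8 replicates 1 and 2 than on the other clone arrays, and they were chosen for this likeness.

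On chromosome 12, LGR5 lies next to TSPAN8, which encodes a tetraspanin of the cell surface. Of the 10 measured genes on each side of LGR5, 3 of 20 had a limma adjusted p under 0.05 in clones against mock, beside 6.38% of all genes, and the median difference of the 20 was 0.02. TSPAN8 was 7.05, 6.92 and 7.19 in wild-type, 7.80, 7.65 and 7.72 in mock, 9.77, 9.40 and 8.60 in clone 7 and 8.08, 8.48 and 9.09 in clone 8. It rose by 1.18 ± 0.23 over mock (adjusted p = 0.0111), and by 1.21 ± 0.11 without the clone arrays numbered 3 (adjusted p = 5.85e-05). All its clone arrays lay above all its control arrays, as those of 2.55% of all genes did. On the 3 clone arrays where LGR5 was low it was 9.09 to 9.77, above the 8.08 to 8.60 on those where LGR5 was high. TSPAN8, named after its values were seen, was the only one of the 20 that was called. KCNMB4 (0.38, adjusted p = 0.0481) and PTPRB (0.31, adjusted p = 0.0443) were higher too, by less than 1.5-fold.

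LGR4, the other R-spondin receptor of the set, was higher in the clones than in wild-type cells but was not called. Its log2 level (probe set 7947199, chromosome 11) was 9.39, 9.49 and 9.52 in wild-type, 9.65, 9.75 and 9.64 in mock, 9.89, 9.85 and 10.15 in clone 7 and 9.99, 10.24 and 9.74 in clone 8. The clone arrays lay above the wild-type arrays without overlap, and clone 8 replicate 3 fell within the range of mock. The share of all genes without overlap between clones and wild-type was not counted. The clones exceeded wild-type by 0.51 ± 0.10 (1.42-fold, adjusted p = 0.00675). Against mock the difference was 0.30 ± 0.10 (adjusted p = 0.0997), and mock against wild-type gave 0.21 ± 0.11 (adjusted p = 0.537). Without the 2 clone arrays numbered 3 the difference from mock was 0.32 ± 0.07 (adjusted p = 0.00905), so that whether LGR4 passed depended on them, and that from wild-type was 0.53 ± 0.07 (adjusted p = 0.00028). Without clone 8 replicate 2 they were 0.24 ± 0.08 (adjusted p = 0.0829) and 0.45 ± 0.08 (adjusted p = 0.00488). Of 9 genes of the R-spondin axis, LGR5 alone passed by the adjusted p in clones against mock, beside 6.38% of all genes. The axis adds LGR6, the R-spondins and the ligases ZNRF3 and RNF43 to LGR4 and LGR5. LGR5 was among the genes chosen by name.

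LEF1, a nuclear partner of beta-catenin and itself a known target of the pathway, went the other way. Its log2 level (probe set 8102232, chromosome 4) was 9.49, 9.69 and 9.67 in wild-type, 9.86, 9.85 and 9.74 in mock, 9.21, 9.32 and 9.45 in clone 7 and 9.15, 9.49 and 9.28 in clone 8. All 6 clone arrays lay below all 3 mock arrays, and they met the wild-type range only at 9.49. How many of all genes separate clones from mock in this way was not counted. The clones were lower than mock by -0.50 ± 0.08 (adjusted p = 0.00417), with -0.49 ± 0.10 in clone 7 (adjusted p = 0.0165) and -0.51 ± 0.10 in clone 8 (adjusted p = 0.0123), where 3.14% and 5.09% of all genes passed. Both clones together passed whichever array was left out, while each clone alone lost its adjusted p without mock replicate 1 or 2, and clone 7 also without its replicate 1 or 2 (adjusted p = 0.0613 to 0.0896). At 1.41-fold the difference was under the fold limit, so that LEF1 was not called. By the adjusted p alone, 1 of the 10 genes was higher and 1 was lower in clones against mock, beside 2.87% and 3.51% of all genes. Against wild-type the clones were lower by -0.30 ± 0.08 (adjusted p = 0.0393), which was lost without any 1 of 9 arrays (adjusted p = 0.0505 to 0.183), with every probe set fitted (0.0613) and with only the compared groups in the fit (0.0913), so that it passed under 10 of 21 alternatives. Without the 2 clone arrays numbered 3 the difference was -0.52 ± 0.08 from mock (adjusted p = 0.00207) and -0.32 ± 0.08 from wild-type (adjusted p = 0.0219). Without clone 8 replicate 2 that from mock was -0.54 ± 0.07 (adjusted p = 0.00137).

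By their median, the neighbours of LEF1 shared its direction in part. Around LGR5 the median did not, though the genes that passed there were all higher, as LGR5 was. The 20 measured genes around LEF1 had a median difference of -0.18 between the clones and mock, and 3 of them had an adjusted p under 0.05, beside 6.38% of all genes. With 5 genes on each side the median was -0.03 and 2 of 10 passed, and with 25 on each side it was -0.18 and 7 of 50 passed. Around the other 9 genes, LGR5 included, the median of 20 lay between -0.02 and 0.03.

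TCF7L2, the other nuclear factor of the set, had log2 levels (probe set 7930537, chromosome 10) of 11.08 to 11.24 in wild-type, 11.08 to 11.15 in mock, 10.95 to 11.27 in clone 7 and 11.05 to 11.32 in clone 8. The 4 groups overlapped. The difference between the clones and mock was 0.03 ± 0.08 (interval -0.14 to 0.20, adjusted p = 0.891), an interval narrower than 1.5-fold in either direction.

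WNT5A, which acts mainly through branches that do not need beta-catenin, was lower in every transfected line than in wild-type cells. Its log2 level (probe set 8088180, chromosome 3) was 9.26, 9.53 and 9.35 in wild-type, 8.96, 9.05 and 9.03 in mock, 8.92, 8.99 and 8.98 in clone 7 and 8.72, 9.01 and 8.89 in clone 8. All wild-type arrays lay above all others, and the ranges of mock and of both clones overlapped. The share of all genes with such a separation was not counted. Mock was lower than wild-type by -0.37 ± 0.08 (adjusted p = 0.0427, where 2.24% of all genes passed by the adjusted p alone) and the clones were lower by -0.46 ± 0.07 (adjusted p = 0.00196, where 9.95% passed). These comparisons share the wild-type arrays. The first was lost without any 1 of 7 arrays, mock and wild-type ones among them (adjusted p = 0.0655 to 0.194), and with every probe set fitted (adjusted p = 0.083), so that it passed under 13 of 21 alternatives. The second passed under all 21, with -0.47 ± 0.08 without the clone arrays numbered 3 (adjusted p = 0.00208). The clones and mock differed by -0.09 ± 0.07 (interval -0.25 to 0.07, adjusted p = 0.538). Neither difference from wild-type reached 1.5-fold.

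WNT5B, the close relative of WNT5A, did not follow it. Its level (probe set 7953012, chromosome 12) lay between 8.32 and 8.59 over the 12 arrays, and the largest of its differences over the 6 comparisons was 0.04.

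FZD7 (probe set 8047487, chromosome 2), a Frizzled receptor, was 8.82, 8.93 and 9.06 in wild-type, 9.11, 9.12 and 9.18 in mock, 9.29, 9.18 and 8.79 in clone 7 and 8.77, 8.79 and 9.39 in clone 8. The clone arrays spread on both sides of the controls, and the SD was 0.26 in clone 7 and 0.36 in clone 8, as labelled, against 0.03 in mock. The clones and mock differed by -0.10 ± 0.14 (adjusted p = 0.749). For clone 8 alone the difference from mock was -0.15 ± 0.16 (adjusted p = 0.591). With both clone arrays numbered 3 left out, clone 8 differed from mock by -0.36 ± 0.08 (adjusted p = 0.00884). Clone 7 then differed by 0.10 ± 0.08 (adjusted p = 0.507). Leaving these arrays out lowers the spread by its construction, so that the smaller p-value of clone 8 is no added support. Clone 8 was then -0.45 from clone 7, which is given with no test since the arrays were left out for how they lay between the clones. On the same footing LGR5 stood 0.92 and TCF7L2 0.28 higher in clone 8 than in clone 7.

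The secreted modulators varied little over the 12 arrays. DKK1 (probe set 7927631, chromosome 10) lay between 13.85 and 14.05 on all arrays, and the clones differed from mock by 0.07 ± 0.05 (interval -0.04 to 0.18). DKK3 (probe set 7946661, chromosome 11), which shares the family name but is not an established LRP antagonist, lay between 12.75 and 12.95, with a difference of -0.03 ± 0.06 (interval -0.16 to 0.10). The dimmer DKK3 probe set gave -0.01 ± 0.08. Both intervals exclude a 1.5-fold change of the measured level in either direction. DKK1 was brighter than every marker named above (KRT18, the brightest, was 13.67). Whether so bright a probe set still follows its transcript in proportion was not tested. Without the clone arrays numbered 3 the differences were 0.07 for DKK1 and -0.04 for DKK3.

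AXIN2, often read as a report of canonical signalling, had log2 levels (probe set 8017718, chromosome 17) of 8.53, 8.48 and 8.40 in wild-type, 8.51, 8.55 and 8.47 in mock, 8.51, 8.52 and 8.56 in clone 7 and 8.78, 8.58 and 8.59 in clone 8. The 3 clone 8 arrays were above all others, and how many of all genes show this was not counted. The difference between clone 8 and mock was 0.14 ± 0.07 (adjusted p = 0.24), and that of both clones was 0.08 ± 0.06 (interval -0.04 to 0.20, adjusted p = 0.493). Without the clone arrays numbered 3 the clones differed from mock by 0.09 for AXIN2 (adjusted p = 0.416), 0.02 for TCF7L2 and 0.04 for WNT5B.

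**Figure D4:**
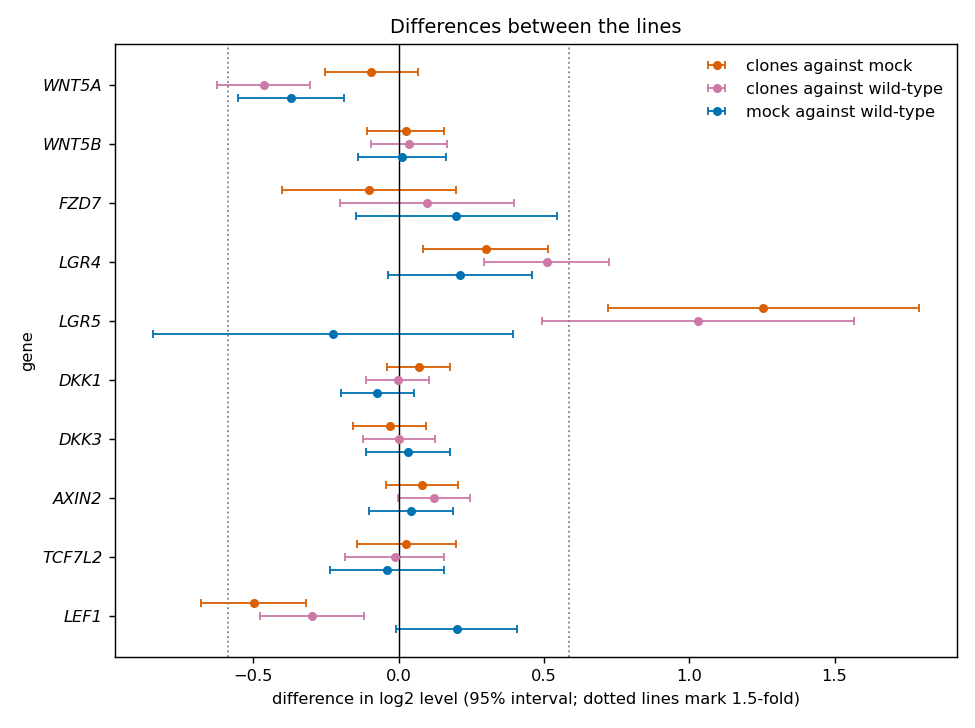
Difference in log2 level (horizontal axis) with its 95% interval for the 10 genes (vertical axis) between the clones and mock (orange), the clones and wild-type (pink) and mock and wild-type (blue), with dotted lines at 1.5-fold. LGR5 stands to the right in both clone comparisons (1.25 and 1.03), and LEF1 lies at -0.50 against mock.

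The promoters were read to show the sequence before the start of the genes whose levels differed, beside DKK1, a known Wnt target whose measured level did not. RefSeq (GRCh38.p14) gave 6 of the 10 genes in the table used here, and LGR5, FZD7, DKK3 and AXIN2 were not among them. The motif ATCAAAG, a core of TCF and LEF binding sites, and its shorter part CAAAG were searched on both strands in the 250 bases before each start. Each printed sequence runs 5′ to 3′ on the strand of the gene and ends at the base before the start, with CAAAG or its reverse complement CTTTG in capitals. LEF1 lies at chr4:108166302-108166551, minus strand, LGR4 at chr11:27472791-27473040, minus strand, WNT5A at chr3:55487307-55487556, minus strand, and DKK1 at chr10:52314031-52314280, plus strand.
LEF1: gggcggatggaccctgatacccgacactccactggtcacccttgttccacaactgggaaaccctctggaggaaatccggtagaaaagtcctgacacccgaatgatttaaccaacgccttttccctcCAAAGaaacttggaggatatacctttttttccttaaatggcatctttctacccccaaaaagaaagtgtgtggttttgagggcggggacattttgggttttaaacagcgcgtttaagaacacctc
LGR4: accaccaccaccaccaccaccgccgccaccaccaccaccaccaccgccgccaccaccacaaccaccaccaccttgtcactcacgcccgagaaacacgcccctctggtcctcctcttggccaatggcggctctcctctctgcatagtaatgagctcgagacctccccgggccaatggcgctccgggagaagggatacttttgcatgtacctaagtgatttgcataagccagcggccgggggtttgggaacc
WNT5A: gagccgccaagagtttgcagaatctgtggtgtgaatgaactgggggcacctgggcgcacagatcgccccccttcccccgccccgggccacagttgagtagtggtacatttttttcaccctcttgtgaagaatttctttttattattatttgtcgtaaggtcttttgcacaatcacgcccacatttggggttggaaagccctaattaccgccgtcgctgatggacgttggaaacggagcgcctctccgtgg
DKK1: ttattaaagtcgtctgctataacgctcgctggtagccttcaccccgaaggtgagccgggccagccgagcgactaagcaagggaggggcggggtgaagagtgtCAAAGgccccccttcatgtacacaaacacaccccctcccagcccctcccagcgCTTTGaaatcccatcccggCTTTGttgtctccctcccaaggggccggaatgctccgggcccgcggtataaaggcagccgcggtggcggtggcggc

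ATCAAAG was in 0 of the promoters of the 6 genes, and in 2.26% of the 35116 promoters of this length. CAAAG was in 42.1% of them. LEF1 held it once, beginning at position -124 from the start, and DKK1 held it 3 times, at -148, -95 and -76. Of the 3 promoters listed for TCF7L2, 1 held it 3 times, at -222, -189 and -133, another once, at -114, and the last not. The promoter of LGR4 and both promoters listed for WNT5A held none, nor did those of WNT5B. A match to these letters is a description of the window.

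The wider pathway was counted from 9 lists of 105 genes, of which 103 were measured (PORCN and TCF7 were not). In clones against mock LGR5 was the only one called. By the adjusted p alone 4 were higher and 2 lower, or 5.83% of the measured genes against 6.38% of all genes, and the median difference of the lists outside the 10 genes was 0.02 against 0.01 for all genes. FZD4, a Frizzled receptor, was higher by 0.25 ± 0.05 (adjusted p = 0.0124), DKK2, an LRP ligand related to DKK1, by 0.32 ± 0.08 (adjusted p = 0.0335), and DACT1, which binds Dishevelled, by 0.39 ± 0.08 (adjusted p = 0.0161). PRICKLE2, of the planar polarity branch, was lower by -0.36 ± 0.06 (adjusted p = 0.00413). Without any 1 mock array FZD4, DKK2 and DACT1 no longer passed (adjusted p = 0.0562 to 0.2). DKK2 also missed without any 1 wild-type array or clone 7 replicate 1, while PRICKLE2 passed without each array. Over all alternatives DKK2 passed under 9 of 20, FZD4 and DACT1 each under 18 of 21, and PRICKLE2 under all 21. Without the clone arrays numbered 3 these 4 genes gave 0.25, 0.33, 0.42 and -0.35, and each passed. None of the 19 ligands passed, 1 of 15 receptors did, and of 14 measured target genes LGR5 was higher and LEF1 lower. No gene of the lists passed between clone 8 and clone 7.

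**Figure D5:**
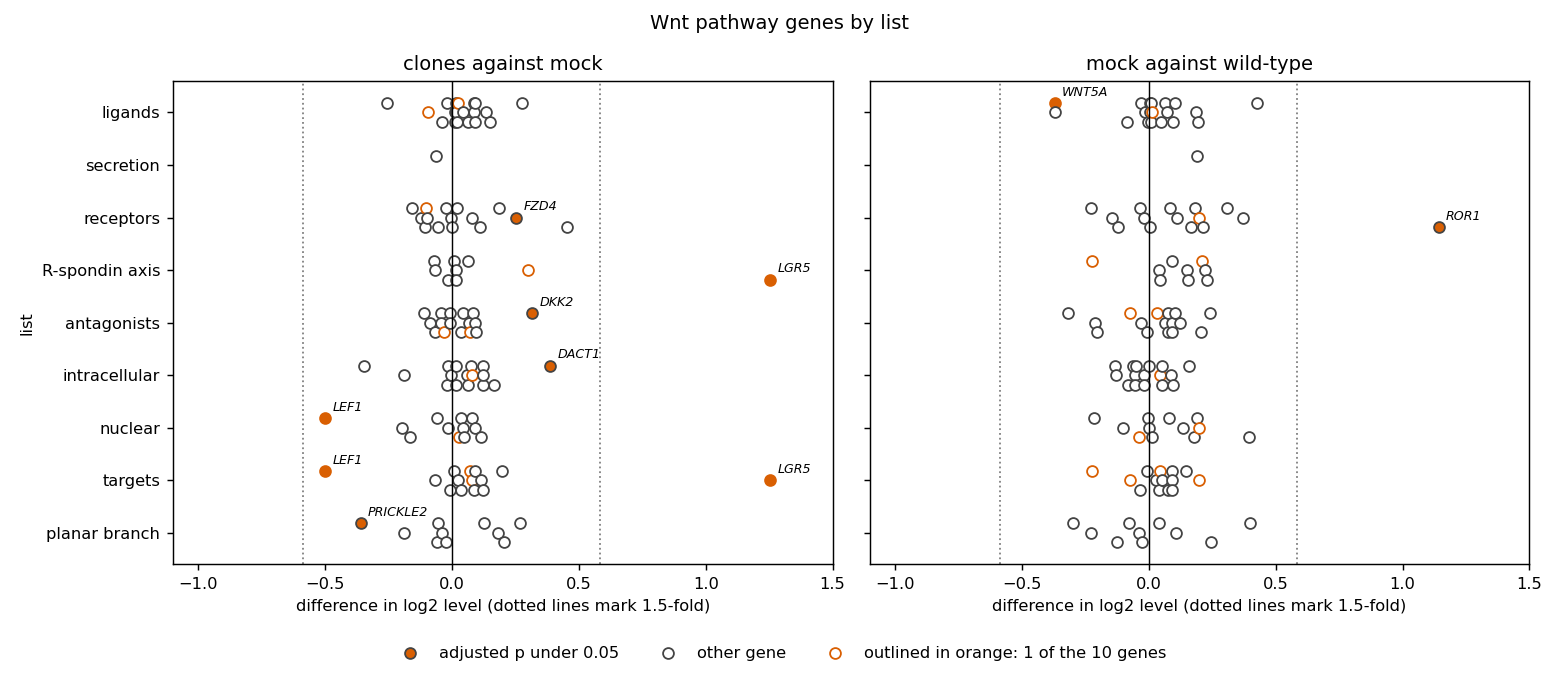
Difference in log2 level (horizontal axis) of each measured gene of the 9 Wnt lists (vertical axis), for clones against mock on the left and mock against wild-type on the right. Filled points have an adjusted p under 0.05, an orange outline marks 1 of the 10 genes, dotted lines mark 1.5-fold, and a gene in more than 1 list is drawn in each. LGR5 lies past the line on the left (1.25) and ROR1 on the right (1.14).

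The controls differed as well. ROR1, a receptor for WNT5A, rose in mock over wild-type by 1.14 ± 0.21 (adjusted p = 0.0138) and was the only listed gene called there (0.673% of all genes were). Its adjusted p was 0.0536 to 0.074 without wild-type replicate 2 or 3 or any 1 mock array. Its level was 8.58 to 8.71 in wild-type, 9.74 to 9.88 in mock, 9.88, 9.84 and 10.68 in clone 7 and 10.49, 10.68 and 9.91 in clone 8. In mock ROR1 was thus higher and WNT5A lower than in wild-type, and a link between them was not tested. Against wild-type the clones had 9 listed genes higher and 6 lower by the adjusted p, or 14.6% of the measured genes against 9.95% of all genes. Without the 10 genes chosen by name, 7 were higher and 4 lower, or 11.8% of the 93 measured. ROR1 (1.60 ± 0.18, adjusted p = 0.000235), the ligand WNT7B (0.70 ± 0.16, adjusted p = 0.0182) and LGR5 rose, and the ligand WNT9A fell by 0.63 on the log2 scale (SE 0.08, adjusted p = 0.000434). ROR1, WNT7B and WNT9A already differed between mock and wild-type in the same direction, by 1.14, 0.43 and -0.37, of which only that of ROR1 passed the test. WNT7B no longer passed against wild-type without any 1 wild-type array (adjusted p = 0.0613 to 0.0856). Without the clone arrays numbered 3, ROR1 (1.57), WNT7B (0.66) and WNT9A (-0.67) were called against wild-type as well.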

How the data were processed

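The table held 33297 probe sets on 12 arrays. GEO's platform annotation pairs 19460 of them with 1 gene symbol, 1754 with several and 12083 with none. RefSeq (GRCh38.p14) held 19429 of the single symbols by Entrez number and changed 0. The deposited values were log2 expression levels that the authors had already summarized and normalized. The submitters' processing notes name Partek with no version, and the summary and normalization methods are not given in the sources used here. No detection calls came with the values. Precision is limited by the number of arrays. No array was scaled further.

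For 18417 genes a model with 1 mean per group was fitted with limma 3.58.1 (lmFit, eBayes) in R 4.3.3, with 6 contrasts, and p-values were adjusted by Benjamini-Hochberg over all genes of a contrast. The script was tested on simulated data. Where a gene had several probe sets (769 genes), the brightest on average was kept. The 10 genes and the Wnt and marker lists were chosen with earlier results of these data known. Named besides the 10 were listed genes called in a contrast, the 5 genes nearest to LGR5 by root-mean-square difference and hHSS1. Listed genes past the adjusted p alone and the neighbours of LGR5 were named after their values were seen. The neuronal and epithelial marker lists held 2 of 6 and 2 of 5 genes above the median of all genes. Alternatives were quantile normalization, median scaling, a filter on dim genes, all probe sets, array weights, fewer groups, the replicate number as a block and each array left out.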

Additional observations from a re-analysis of the deposited data

How the results depend on the processing

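The rise of LGR5 over mock kept its direction under all 20 alternatives run, with an adjusted p under 0.05 in 17. With 1 array left out it ran from 1.10 to 1.42 (log2, adjusted p = 0.00173 to 0.0642), and it was lost without any 1 mock array. A filter that dropped the dimmest 25% of genes left no value for LGR5 or DKK2. LEF1 against mock passed under all 21 alternatives (adjusted p = 9.13e-05 to 0.036). All counts of alternatives, here and above, include the fit without both clone arrays numbered 3. That fit was chosen after seeing the data and adds no support. Arrays of the same replicate number showed no steady pairing (correlation of deviations -0.83 to 0.45). The -0.83 lay between the clone arrays numbered 3, which were each nearer to the other clone. The 0.45 lay between wild-type and clone 8 replicate 1. Whether the numbers pair cultures was not tested. With the replicate block the clones differed from mock by 1.25 for LGR5 (adjusted p = 0.0294) and 120 genes were called. The block ended no call of the 10 genes, and among other listed genes in clones against mock it took DKK2 above the limit (adjusted p = 0.0719). Of 625 values recomputed for the 10 genes, 561 kept their direction and side of the threshold, 38 lost the threshold, 14 gained it and 12 reversed.

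Counts of called genes moved most. With array weights they were 205 for clones against mock, 346 for clone 7 against mock and 201 for mock against wild-type. With only the groups compared in the fit they were 89 for clone 8 against mock and 200 for mock against wild-type, and with every probe set fitted 537 for clones against wild-type. Leaving out 1 array gave 107 to 178 for clones against mock, 89 to 277 for clone 7 and 88 to 277 for clone 8 against mock, 96 to 153 for mock against wild-type, 228 to 342 for clones against wild-type and 0 between the clones. Without both clone arrays numbered 3 the counts were 399 and 379 for clones 7 and 8 against mock, 617 between the clones, which the choice of arrays builds in, and 199 for mock against wild-type. Small differences changed sign. Between clone 8 and clone 7, LEF1 gave 0.024 with array weights and 0.0598 without both arrays, and with 1 array left out LEF1 ran from -0.11 to 0.062, LGR4 from -0.10 to 0.15 and LGR5 from -0.018 to 0.62. In clones against mock, WNT5B gave -0.0123 after quantile normalization, and TCF7L2 gave -0.0124 with array weights and -0.0191 to 0.0641 with 1 array left out. The causes were not tested.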
